A study of Homo sapiens with 9 samples.

Results

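Histone genes were looked for on 9 whole-transcript arrays of HL-60 clone 15 cells by the pattern of their symbols, and only 1 was found by it. Of 14778 named genes, 2 carry a symbol of the histone pattern, which covers the families H1, H2A, H2B, H3 and H4 under older and current symbols. They are H2AP, which encodes an H2A-type histone, and H1-10-AS1, a long noncoding RNA gene named as antisense to the linker histone gene H1-10. RefSeq lists 92 protein-coding genes of this pattern, and 91 of them are not analysed here, because no probe set was paired with their names. The replication-dependent histone genes of the pattern, whose mRNAs supply new chromatin in S phase, are all among those 91. What follows is therefore about H2AP and H1-10-AS1, and not about histone supply as a whole.

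HL-60 is an established human line of promyelocytic leukaemia, and clone 15 can be driven towards eosinophils. Inducible lentiviral constructs brought in either RhoH or the fluorescent protein GFP, and 4-hydroxytamoxifen (4-OHT) was the inducer. The groups of 3 arrays each were RhoH cells with 100 nM 4-OHT (induced RhoH), RhoH cells without 4-OHT (uninduced RhoH) and GFP cells with 100 nM 4-OHT (GFP). No GFP cells without 4-OHT were analysed. Between induced and uninduced RhoH, 4-OHT itself and the induced construct therefore cannot be told apart. Induced RhoH and GFP cells both received 4-OHT, and there the construct and differences between the transduced populations cannot be told apart. Uninduced RhoH and GFP cells differed in 4-OHT as well, so none of these can be told apart there. The submitters describe the 3 samples of a group as biological replicates, and whether each transduced population was 1 clone is not given in the sources used here.

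Histones wrap DNA into nucleosomes, each with a core of H2A, H2B, H3 and H4, while H1 binds the linker DNA between them. Most histone genes are switched on only while DNA is copied, and their mRNAs end in a stem-loop in place of a poly(A) tail. Variant histones are made outside S phase or in special cells. H2AP belongs to the short H2A variants of mammals, a family known mainly from the testis, and its product was also described as a partner of huntingtin. H1-10, the neighbour that gives H1-10-AS1 its name, encodes a linker histone made throughout the cell cycle. No function of H1-10-AS1 is given here.

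The promoter window of H2AP is shown because histone promoters share short motifs that can be read in it. RefSeq holds a window of 300 bases for H2AP, from 250 before the gene start to 50 after it, and none was found for H1-10-AS1 in the table used. It lies at chrX:37990529-37990828 on the plus strand of GRCh38.p14. Capitals mark the motif CCAAT, the binding site of the factor NF-Y.
H2AP: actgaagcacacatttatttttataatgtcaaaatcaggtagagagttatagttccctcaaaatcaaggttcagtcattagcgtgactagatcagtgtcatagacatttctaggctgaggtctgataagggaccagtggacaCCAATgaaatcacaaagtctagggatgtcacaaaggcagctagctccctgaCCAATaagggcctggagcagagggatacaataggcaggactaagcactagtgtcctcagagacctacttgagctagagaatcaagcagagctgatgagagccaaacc

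The window held CCAAT at 2 places on the plus strand, whose first bases lie 108 and 57 bases before the gene start, and none on the minus strand. Counting both strands, 2 or more CCAAT motifs were present in 10.8% of all 35116 RefSeq promoter windows and in 68.1% of the 91 windows of protein-coding histone genes. In that respect the H2AP window resembled most other histone promoters. The octamer ATGCAAAT, known from H2B promoters, was absent from it on both strands and was found in 1.77% of all windows and 30.8% of histone windows. The motif TATAAA occurred once, on the minus strand and far from the start, and was found in 11.5% of all windows and 57.1% of histone windows. The 3 matches, of CCAAT and TATAAA, do not overlap one another in the H2AP window. A motif match is a description of letters, and binding was not measured.

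All values below are log2 signals from the robust multi-array average (RMA) method, in which 1 unit is a 2-fold difference. RHOH, the gene of the construct, was measured first as a check of the labels. Its log2 signal was 5.60, 5.73 and 5.45 in the arrays labelled induced RhoH, 5.23, 5.25 and 5.15 in those labelled uninduced RhoH and 5.90, 5.94 and 5.94 in those labelled GFP. It was thus highest where no RhoH construct was labelled, and every direction given here is that of the arrays as labelled. Whether the probe set of RHOH detects RNA of the construct was not tested, so these values cannot settle the labels. The group means of RHOH differed by 0.38 between induced and uninduced RhoH (limma adjusted p = 0.0451) by -0.33 between induced RhoH and GFP (limma adjusted p = 0.0717) and by -0.72 between uninduced RhoH and GFP (limma adjusted p = 0.000420). Of 19 alternatives, 12 ended the call for induction (limma adjusted p up to 0.192), and the difference of uninduced RhoH from GFP was called in all 19. Among the myeloid markers, MPO, which encodes myeloperoxidase, was between 12.16 and 13.41 on the 9 arrays, AZU1 between 9.66 and 11.20, EPX between 7.09 and 10.14 and CLC between 6.78 and 9.32. The epithelial marker KRT18 was between 8.47 and 9.10. Of the 7 lymphoid markers, NCAM1 and CD8A were named genes here, and of the 7 erythroid and megakaryocyte markers PF4 and GP9, so those cell types were checked only in part, and neither these nor the 3 named epithelial markers were called by limma (0 also at an unadjusted p under 0.05). The replicate 1 arrays of both RhoH groups stood apart together, with deviations from their group means that correlated at 0.543 across genes. They belong to different groups but are not independent of each other, and the replicate 2 arrays of these groups correlated at 0.368. The main fit takes all 9 arrays as independent, so for induced against uninduced RhoH its p-values rest on an assumption that is not met. With the replicate number as a block, 504 genes were called higher and 180 lower with induction, against 447 and 111 in the main fit. Results are also given without the 2 RhoH replicate 1 arrays where that changed a count or a sign.

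H2AP had nearly the same signal in all 3 groups. Its log2 signal was 4.97, 5.02 and 5.09 in induced RhoH arrays, 5.02, 4.95 and 5.15 in uninduced RhoH arrays and 5.09, 4.93 and 5.07 in GFP arrays. The arrays of each pair of groups overlapped, and no group held both the lowest and the highest array. Over all named genes the arrays did not overlap for 14.5% between induced and uninduced RhoH, 22.5% between induced RhoH and GFP and 37.3% between uninduced RhoH and GFP. Group means were 5.03 ± 0.06 in induced RhoH, 5.04 ± 0.10 in uninduced RhoH and 5.03 ± 0.09 in GFP (SD, n = 3 each), so the order of the groups lies within the spread of each.

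**Figure D1:**
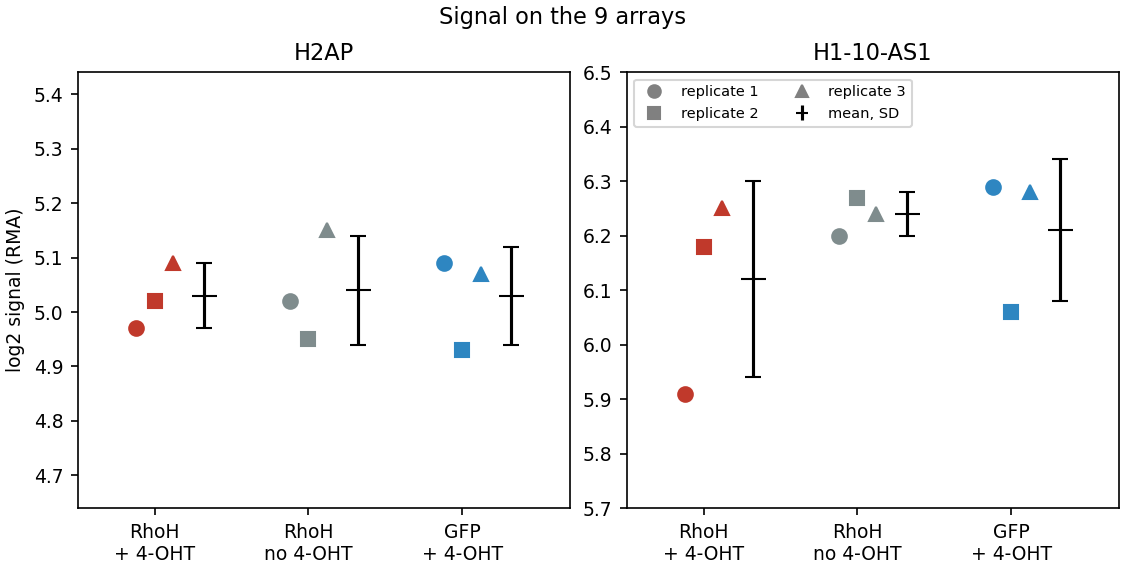
Log2 signal (RMA) of H2AP (left) and H1-10-AS1 (right) on each of the 9 arrays, by group, with symbols for the replicate numbers and black marks for the mean and SD of 3 arrays; both vertical axes span 0.8 units and do not start at 0. The H2AP points of all groups lie between 4.93 and 5.15, and the lowest H1-10-AS1 point is induced RhoH replicate 1 at 5.91.

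The question whether H2AP changes when RhoH is induced was put to limma, a linear model fitted over all 14778 genes with Benjamini-Hochberg adjustment and a threshold of 0.05. H2AP differed by -0.015 between induced and uninduced RhoH (SE 0.09, limma adjusted p = 0.974). The 95% confidence interval of that difference ran from -0.21 to 0.18, or from 0.863-fold to 1.14-fold. Differences inside these bounds could not be told from 0 with 3 arrays a group. Between these groups 3.78% of all named genes passed the threshold, and H2AP was not among them.

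Against GFP cells, which received the same 4-OHT, H2AP was just as flat. It differed by -0.0040 between induced RhoH and GFP (SE 0.09, limma adjusted p = 0.988), with an interval from -0.20 to 0.19. Of all named genes, 4.49% passed in this comparison. Between uninduced RhoH and GFP, where 15.3% of named genes passed, H2AP differed by 0.011 (SE 0.09, limma adjusted p = 0.954), with an interval from -0.19 to 0.21. These 3 comparisons share arrays, so they are not independent results. As 1 histone gene was tested, the median over histone genes is the value of H2AP, and the median over all named genes was -0.0043, 0.033 and 0.048 in the 3 comparisons in the order given.

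H2AP was also among the least variable genes of the table. Its highest and lowest arrays were 0.23 apart on the log2 scale, or 1.17-fold, and 4.6% of named genes had a smaller range over the 9 arrays. The median range of all named genes was 0.55. Within groups its SD was 0.086, against a median of 0.147 over all named genes. Its mean signal lay in the dimmest 25% of named genes. RMA compresses differences at low signal, and the table holds no detection call, so whether H2AP was transcribed in these cells was not tested. An absent transcript and a steady one cannot be told apart at this signal.

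H1-10-AS1 varied more than H2AP, and mainly through 1 array. Its log2 signal was 5.91, 6.18 and 6.25 in induced RhoH arrays, 6.20, 6.27 and 6.24 in uninduced RhoH arrays and 6.29, 6.06 and 6.28 in GFP arrays. Induced RhoH replicate 1 was the lowest of the 9, GFP replicate 2 was next, and the groups overlapped. Group means were 6.12 ± 0.18 in induced RhoH, 6.24 ± 0.04 in uninduced RhoH and 6.21 ± 0.13 in GFP (SD, n = 3 each).

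The difference of H1-10-AS1 between induced and uninduced RhoH was -0.12 (SE 0.11, limma adjusted p = 0.736), with a 95% interval from -0.36 to 0.12. Without induced RhoH replicate 1 it was -0.020, which is the smallest size over the alternatives. Between induced RhoH and GFP it was -0.10 (SE 0.11, limma adjusted p = 0.713), with an interval from -0.34 to 0.14, and without induced RhoH replicate 1 it was 0.0044. Between uninduced RhoH and GFP it was 0.02 (SE 0.11, limma adjusted p = 0.916), with an interval from -0.22 to 0.27. Its range over the 9 arrays was 0.38, and 22.6% of named genes had a smaller one. H1-10 itself was not analysed here, so the signal of the antisense RNA could not be set beside that of the linker histone gene.

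**Figure D2:**
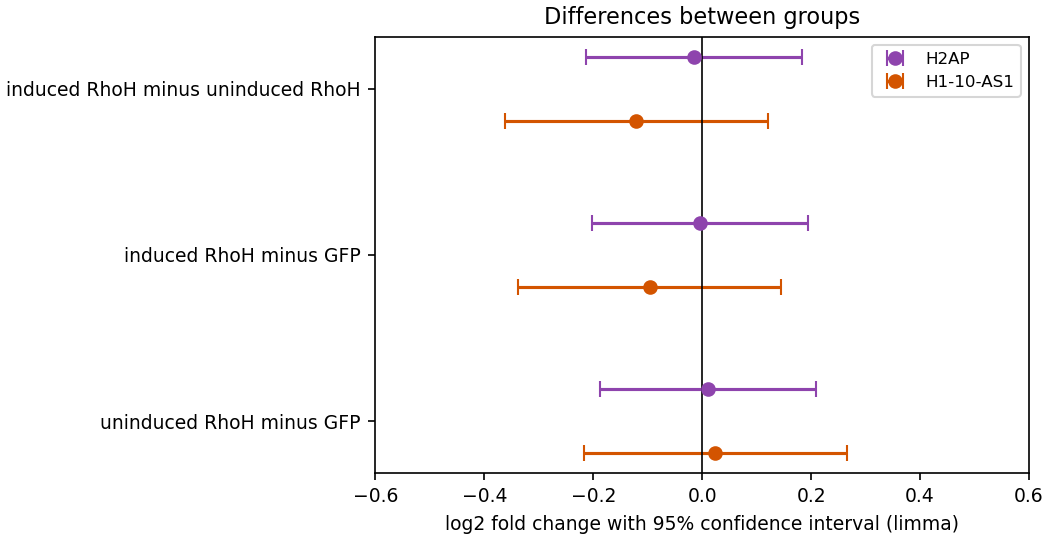
Log2 fold change (horizontal axis) with the 95% confidence interval from limma for H2AP and H1-10-AS1 in the 3 comparisons (vertical axis). All 6 intervals include 0, and none reaches beyond -0.36 or 0.27.

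CENPA, the H3 variant that marks centromeres, does not carry a symbol of the pattern and was named after its values were seen, as another histone gene with a name in the table. Its log2 signal was 8.22, 8.12 and 8.40 in induced RhoH arrays, 8.20, 8.30 and 8.22 in uninduced RhoH arrays and 8.11, 8.22 and 8.19 in GFP arrays. The 3 groups overlapped, as for H2AP. CENPA differed by 0.0087 between induced and uninduced RhoH (limma adjusted p = 0.985), by 0.08 between induced RhoH and GFP (limma adjusted p = 0.733) and by 0.07 between uninduced RhoH and GFP (limma adjusted p = 0.688).

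Genes of proteins that carry histones were represented by more names, with 30 measured of 39 listed. Of 30 measured histone chaperones and histone importers, 2 were higher and 2 lower in uninduced RhoH than in GFP, where 6.01% and 9.27% of all named genes were higher and lower, and the median of the list was 0.00. The 4 of 30 are no larger a share than the 15.3% of all named genes called in this comparison, so single genes are described and nothing is read about the list. IPO4, an importin that brings H3 and H4 into the nucleus, was at 9.78, 9.85 and 9.92 in uninduced RhoH arrays, against 8.76, 8.77 and 8.77 in GFP arrays. That is 2.12-fold higher in uninduced RhoH (limma adjusted p = 0.000692). NPM3, a nucleoplasmin family member, was 2.17-fold higher in uninduced RhoH (limma adjusted p = 0.00151). RBBP7, a histone-binding subunit of many chromatin complexes, and ASF1B, the H3-H4 chaperone of dividing cells, were lower there by log2 fold changes of -0.68 and -0.60 (limma adjusted p = 0.00175 and 0.00762). All 4 kept their calls in each of the 19 alternatives. The number higher became 7 with array weights, and 4 with quantile normalization again, with only the 6 arrays of the groups compared, without induced RhoH replicate 1 and without both RhoH replicate 1 arrays. The number lower was 2 or 3 in every alternative.

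With induction, 1 chaperone of 30 was higher and 3 were lower, against 3.02% and 0.751% of all named genes, with a list median of -0.04. ASF1B was at 10.04, 10.17 and 10.50 in induced RhoH arrays, against 9.52, 9.74 and 9.77 in uninduced RhoH arrays, a log2 fold change of 0.56 (limma adjusted p = 0.0355). IPO4 fell by 0.79 on the log2 scale (limma adjusted p = 0.0161), NPM3 by 0.77 (limma adjusted p = 0.0361) and the nucleolar histone chaperone NCL by 0.38 (limma adjusted p = 0.0440). The groups did not overlap for any of the 4, as for 14.5% of all named genes. Of 19 alternatives, IPO4 lost its call in 3, ASF1B in 9, NCL in 10 and NPM3 in 11, and all 4 were lost when the fit held only the 6 arrays of the groups compared (limma adjusted p = 0.0980, 0.157, 0.190 and 0.149). Their log2 fold changes kept their sign over the alternatives, from -0.94 to -0.60 for IPO4, 0.42 to 0.65 for ASF1B, -0.44 to -0.32 for NCL and -0.98 to -0.57 for NPM3. Without both RhoH replicate 1 arrays, IPO4 was the 1 chaperone called lower. The comparison shares the uninduced arrays with the preceding one, so the opposite signs are not independent. Between induced RhoH and GFP limma called 0 of 30, against 1.74% of all named genes higher and 2.75% lower, and an unadjusted p under 0.05 was reached by 0 higher and 1 lower chaperone. RBBP7 was at -0.41 there (limma adjusted p = 0.0651). Of 19 alternatives, 9 called 1 chaperone lower there and 2 called 1 higher. The fit without both RhoH replicate 1 arrays called 1 higher and 1 lower. The 0 of 30 thus depends on the processing.

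Among genes that process histone mRNAs, 17 of 27 listed were measured, and nothing is read about the list from their counts. Of 17 measured, limma called 0 with induction, while 1 higher and 1 lower had an unadjusted p under 0.05, and 0 between induced RhoH and GFP, with 0 higher and 2 lower unadjusted. The medians of the list were -0.08 and 0.01, and 3.78% and 4.49% of all named genes were called in these comparisons. Between uninduced RhoH and GFP, the exonuclease XRN1 (-0.58, limma adjusted p = 0.00334) and the poly(A) polymerase TENT4A (-0.48, limma adjusted p = 0.0177) were lower and the Sm protein SNRPB (0.38, limma adjusted p = 0.0486) was higher in uninduced RhoH. These are 3 of 17, near the 15.3% called among all named genes. SNRPB lost its call in 9 alternatives and TENT4A in 2, without GFP replicate 2 or 3 (adjusted p up to 0.0833).

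Replication-dependent histone mRNAs are known to follow S phase, and genes of the cell cycle were listed for that reason. The S-phase list held 42 genes, of which 27 were measured, and the G2 and M phase list 25, of which 21 were measured. Of 27 S-phase genes, 2 were higher and 0 lower with induction (0 lower at an unadjusted p under 0.05), against 3.02% and 0.751% of all named genes. They were CCNE2, which encodes cyclin E2, at 0.79 (limma adjusted p = 0.00691) and E2F8, a transcription factor of the E2F family, at 0.53 (limma adjusted p = 0.00596). The S-phase list had a median of 0.01 with induction, and 16 members were above 0. Of 21 G2 and M phase genes, NUSAP1, a spindle protein, was higher with induction by 0.42 (limma adjusted p = 0.0128) and 0 were lower (0 unadjusted). The median of the 21 was 0.11 and 20 were above 0, against 7231 of 14778 named genes. Of the 21, 12 were above 0 between induced RhoH and GFP, and 8 between uninduced RhoH and GFP. CCNE2, E2F8 and NUSAP1 lost their calls when the fit held only the 6 arrays of the groups compared (limma adjusted p = 0.0555, 0.0537 and 0.0922), and NUSAP1 also without uninduced RhoH replicate 3. Between uninduced RhoH and GFP, UHRF1, which recognises newly copied DNA, was higher (0.54, limma adjusted p = 0.0430), and E2F2 (-0.84, limma adjusted p = 0.00633), the replication checkpoint gene CLSPN (-0.68, limma adjusted p = 0.0217) and CCNE2 (-0.58, limma adjusted p = 0.0107) were lower in uninduced RhoH. Of the 21 G2 and M phase genes, 0 were higher (0 unadjusted) and 4 lower there, namely NUSAP1 (-0.50), HMMR (-0.41), the proliferation marker MKI67 (-0.37) and the topoisomerase gene TOP2A (-0.32), with limma adjusted p between 0.00123 and 0.0237. Of all named genes, 6.01% were higher and 9.27% lower in this comparison. Of these 8 genes, E2F2, CCNE2 and NUSAP1 kept this call in every alternative, and the other 5 lost it in 2 to 7 of 19, each of them without at least 1 GFP array. Between induced RhoH and GFP limma called 0 of the 27 (3 higher and 0 lower unadjusted) and 0 of the 21 (1 higher and 0 lower unadjusted). Of all named genes, 4.49% were called there. Without both RhoH replicate 1 arrays 3 of the 27 were called higher there, and without induced RhoH replicate 1 it was 1. Array weights gave 2, and so did quantile normalization again.

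**Figure D3:**
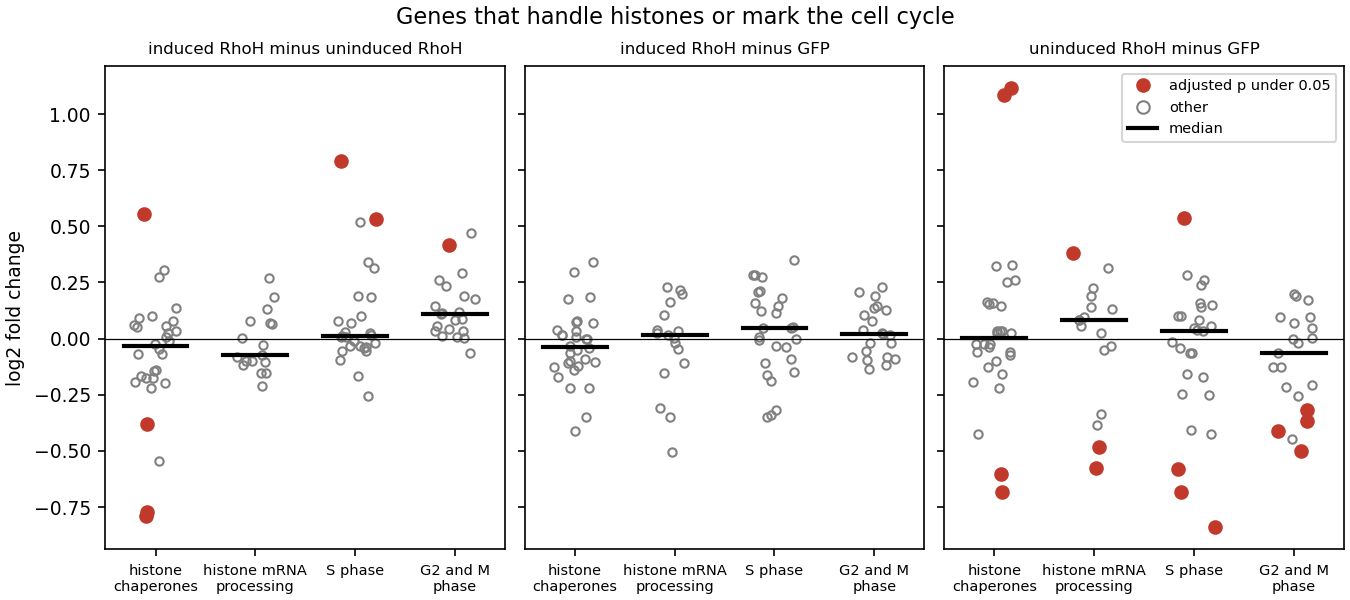
Log2 fold change (vertical axis) of each measured gene in 4 lists (horizontal axis) for the 3 comparisons; filled red points passed an adjusted p under 0.05 in limma, open points did not, and bars are list medians. The middle panel, induced RhoH minus GFP, has no red point, and IPO4 and NPM3 are the 2 highest points on the right, at 1.09 and 1.11.

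Markers of promyelocytes and eosinophils (MPO, PRTN3, AZU1, CTSG, MYB, EPX and CLC) and of monocytes (CD14, CSF1R and CD163) were also compared. The first are 7 of 11 listed and the second 3 of 5 listed. With induction 6 of the 7 measured promyelocyte and eosinophil markers were below 0, with a median of -0.26, against 7547 of 14778 named genes below 0. CTSG, which encodes cathepsin G, was the 1 called lower (-0.83, limma adjusted p = 0.00703), as were 0.751% of all named genes. The 7 markers were all called higher in both RhoH groups than in GFP. Of all named genes, 1.74% were called higher in induced RhoH than in GFP and 6.01% in uninduced RhoH. The summed log2 signal of the 7 was 76.1 to 76.9 in induced RhoH, 78.2 to 79.5 in uninduced RhoH and 66.6 to 66.8 in GFP arrays. The summed signal of the 3 measured monocyte markers was 16.0 to 16.9 in induced RhoH, 15.9 to 16.9 in uninduced RhoH and 17.5 to 18.1 in GFP arrays. CD14 was the 1 monocyte marker called, lower in both RhoH groups than in GFP by log2 fold changes of -1.35 for induced and -1.47 for uninduced RhoH (limma adjusted p = 0.00726 and 0.00126). Of all named genes, 2.75% and 9.27% were called lower in these comparisons. The means in induced RhoH, uninduced RhoH and GFP were 6.97, 6.63 and 6.95 for CSF1R. For CD163 they were 4.13, 4.26 and 4.05. The part of these markers in the chaperone and cell cycle differences of all 3 comparisons was not tested. In bulk RNA, fewer cells of a type or phase and less RNA per cell cannot be told apart.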

How the data were processed

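The values are log2 signals as deposited by the authors in 1 table, with 43550 probe sets on 9 arrays. Affymetrix Power Tools, RMA and limma are named in the submitters' processing notes, and versions and genome build are not given in the sources used here. Probe sets were named through the platform annotation (1 symbol for 15659, several for 0, none for 27891) and RefSeq symbols of GRCh38.p14, used for names and promoter windows only. A probe set without a symbol is unnamed here, not without a gene. The brightest probe set of each gene was kept, and both H2AP and H1-10-AS1 had 1. Symbols were matched in the table or in RefSeq, pseudogenes left out, and the antisense gene kept apart from the count of histone genes.

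The test of group differences used limma 3.58.1 and R 4.3.3 (3 group means, 9 arrays, 6 residual and 3.86 prior degrees of freedom) and Benjamini-Hochberg adjustment over 14778 genes. The fit was tested on simulated data: of 200 genes changed with induction, 28.5% were called at a log2 change of 0.5 and 95.5% at 1. The simulated arrays were independent of each other and no other gene was changed, so these shares may not hold for the real arrays. The number of arrays limits the precision. Any member of the pattern could be named; of the 4 other gene lists, up to 4 called genes a comparison. CENPA is an exception. Same-numbered arrays of induced and uninduced RhoH correlated in their deviations at 0.543, 0.368 and 0.065, unevenly over the numbers. The main fit did not pair samples by number, and the number entered as a block in an alternative. Members and lists were chosen with earlier results of these data known. Alternatives changed the arrays fitted, block, weights, normalization, scaling, filter, probe sets and moderation.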

Additional observations from a re-analysis of the deposited data

How the results depend on the processing

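H2AP and H1-10-AS1 stayed uncalled in all 111 values computed under the 19 alternatives, with a lowest adjusted p of 0.469, and the filter on dim genes removed H2AP, so that it has no value there. Some alternatives could not change a difference, only its p-value, since both genes had 1 probe set and an array outside the groups compared does not enter it. The 111 values are therefore not independent checks. As the differences of the 2 genes were near 0, the sign turned in 14 of the 111 values. For H2AP between induced and uninduced RhoH it was 0.042 without uninduced RhoH replicate 3, 0.012 without induced RhoH replicate 1 and 0.00037 without both RhoH replicate 1 arrays, and leaving out 1 array gave -0.060 to 0.042. Between induced RhoH and GFP it was 0.023 without induced RhoH replicate 1 and also without both RhoH replicate 1 arrays, 0.00035 without induced RhoH replicate 2, 0.024 without GFP replicate 1 and 0.017 without GFP replicate 3, with a range from -0.054 to 0.024 when 1 array was left out. Between uninduced RhoH and GFP it was -0.060 after quantile normalization again, -0.046 without uninduced RhoH replicate 3 and -0.039 without GFP replicate 2, with a range from -0.046 to 0.056 when 1 array was left out. For H1-10-AS1 it was 0.0044 between induced RhoH and GFP without induced RhoH replicate 1 and also without both RhoH replicate 1 arrays, and -0.051 between uninduced RhoH and GFP without GFP replicate 2, with ranges from -0.17 to 0.0044 and from -0.051 to 0.063 when 1 array was left out. The cause was not tested. With the replicate number as a block, 0 histone genes were called in each comparison, and H2AP stayed at -0.015 with induction (limma adjusted p = 0.960). The chaperone counts with induction were still 1 higher and 3 lower, while G2 and M phase genes higher with induction became 2 instead of 1. Chaperones lower in induced RhoH than in GFP became 1 instead of 0. Of the genes lower in uninduced RhoH than in GFP, S-phase genes became 5 instead of 3. G2 and M phase genes lower there became 5 instead of 4, and chaperones 3 instead of 2. Signal strength limits the account of H2AP, which lay in the dimmest 25% of genes.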
